A study of Homo sapiens with 6 samples.

Results

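The genes described here are 31 enzymes and regulators of cholesterol and fatty acid synthesis, out of 36651 genes in the expression table. They were chosen by symbol from the known order of the pathways, and each of the 31 had 1 row in the table. HCT116 cells are epithelial cells of an established human line from a colorectal carcinoma. Polyadenylated RNA was sequenced from 3 control libraries, titled wild type, and 3 libraries labelled siMTA1, which were compared to see how transcript levels differ when MTA1, a subunit of the NuRD chromatin complex, is lowered. The titles of the siMTA1 samples read CrMTA1, which the labels do not explain, and neither the kind of control nor the time after treatment is given in the sources used here. No other allele or agent is named for either group. Nothing in the labels says that replicates were separate cultures, so each p-value reflects only the spread among these libraries, and that spread may be technical. In such bulk RNA, fewer cells with a transcript and less of it per cell cannot be told apart.

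Cells build cholesterol from acetyl-CoA by way of mevalonate, farnesyl diphosphate, squalene and lanosterol. The enzymes are largely controlled together: when sterols run low in the endoplasmic reticulum, SCAP escorts the precursors of the transcription factors SREBF1 and SREBF2 to the Golgi for cleavage, and when sterols are plentiful INSIG proteins hold them back. SREBF2 is best known for sterol genes and SREBF1 for fatty acid genes, which turn acetyl-CoA into saturated and then unsaturated, longer chains. Tumour cells, colorectal carcinoma cells among them, are known for making much of their own lipid.

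The level of MTA1 was 65.90, 67.61 and 66.74 FPKM (fragments relative to a gene's length and the library's mapped fragments) in controls 1, 2 and 3, against 44.55, 43.98 and 47.97 FPKM in siMTA1 libraries 1, 2 and 3. It stood at 68.2% of the control mean (limma adjusted p = 0.000376), and the exact two-sided permutation test gave p = 0.1, the smallest that 3 against 3 allows. Steps in the low values implied a depth of 42900000 to 66700000 fragments per library. Of 9 epithelial and colon markers, 7 averaged at least 1 FPKM, with KRT19 at 3426 and EPCAM at 282.7 FPKM, whereas VIL1 and CDX1 averaged 0.02 and 0.01 FPKM. The epithelial markers summed to 6559 to 6874 FPKM in control and 5661 to 6306 FPKM with siMTA1. Summed over the markers found, fibroblast genes gave 1.94 to 2.01 FPKM in control and 2.17 to 2.76 FPKM with siMTA1 (5 of 6 found, DCN at 0), leukocyte genes 0.34 to 0.46 and 0.28 to 0.37 FPKM (4 of 5 found), and adipocyte and hepatocyte genes 0.19 to 0.35 and 0.29 to 0.36 FPKM (6 of 6 found, ADIPOQ and TTR at 0). The epithelial and fibroblast sums were apart between groups, and their part in the results was not tested.

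With siMTA1, 2 of the 31 genes fell and 0 rose (limma, adjusted p under 0.05 over 12141 genes). Those 2 were the sterol oxidase gene MSMO1 and the fatty acid desaturase gene FADS2. Among all tested genes, 18.2% were called, 12.1% lower and 6.13% higher, so the share called among the 31 genes was not above that background. At an unadjusted p under 0.05, 7 of the 31 were lower and 0 higher. Of the 12141 tested genes, 2853 were lower and 1402 higher at that threshold, or 35.0% in either direction. The log2 difference of a gene is the mean of siMTA1 minus that of control on the log2(FPKM + 1) scale. Its median was −0.10 over the 31 genes and −0.05 over all tested genes. All 31 passed the minimum mean of 1 FPKM for testing. The count was 0 when genes of any level were tested, a fit that called 676 of 33126 genes, 379 of them lower. It was 9, all lower, with libraries weighted by quality (array weights), a fit that called 4049 of 12141 genes, 2615 of them lower. Scaling shifted the balance of the table: 1463 genes were lower and 744 higher as deposited, but 895 and 1011 after quantile normalization, and under each scaling tried MSMO1 and FADS2 were the 2 members called.

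**Figure D1:**
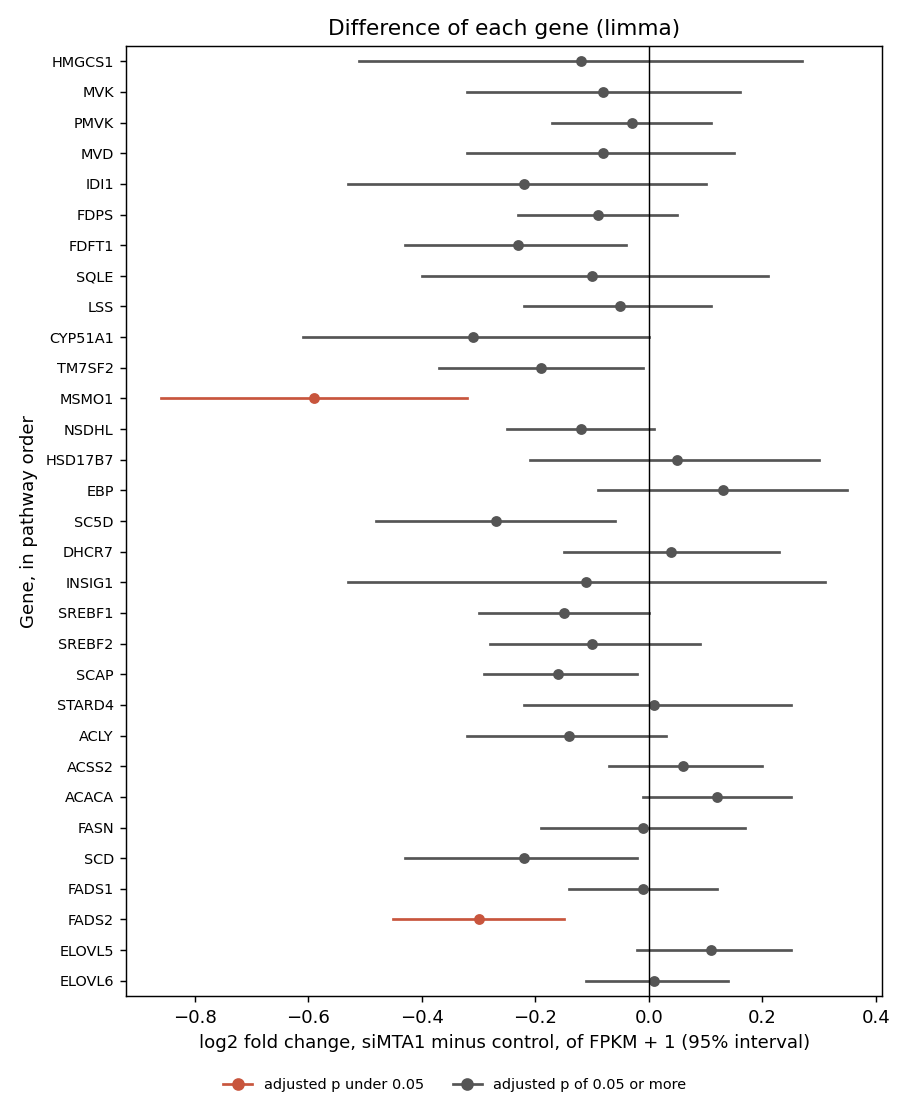
Points are the log2 fold change of FPKM + 1 (x axis, siMTA1 minus control) of the 31 genes in pathway order (y axis), lines are 95% limma intervals from 3 and 3 libraries. MSMO1 at −0.59 and FADS2 at −0.30 are the 2 genes called, and the intervals of HMGCS1 and INSIG1 are among the widest.

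The largest fall was that of MSMO1, which oxidises methyl groups of the sterol ring on the way from lanosterol to cholesterol. It is annotated on the plus strand of chromosome 4, between 165327623 and 165343160 (GENCODE 29, GRCh38). Its level was 13.70, 12.27 and 13.55 FPKM in controls 1, 2 and 3, against 9.78, 6.53 and 9.27 FPKM in siMTA1 libraries 1, 2 and 3. Every siMTA1 library was below every control library, as in 25.9% of all tested genes, and siMTA1 library 2 was the lowest. Mean levels were 13.2 ± 0.786 and 8.53 ± 1.75 FPKM (SD, n = 3 each), so 64.7% of the control level remained (log2 difference −0.59, SE 0.12, limma adjusted p = 0.0107). MSMO1 stayed past the threshold when any 1 library was left out, with adjusted p from 0.0114 to 0.0293, but not when genes of any level were tested (adjusted p = 0.101).

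MSMO1, picked here for its fall, stood lower against its own pathway, which in part restates that fall. On the log2(FPKM + 1) scale, its level minus the mean of the other 16 sterol enzymes in the same library was −0.72, −0.80 and −0.56 in control libraries 1, 2 and 3 and −0.92, −1.38 and −1.23 in siMTA1 libraries 1, 2 and 3. The groups did not overlap in this difference, which was chosen after the values were seen and was not tested. FDFT1, squalene synthase, was apart between groups in the same quantity as well, at 1.45, 1.44 and 1.47 in control and 1.31, 1.35 and 1.38 with siMTA1. For SC5D, a later enzyme than MSMO1, the same quantity overlapped between groups, at −0.61, −0.78 and −0.80 in control and −0.79, −0.88 and −0.95 with siMTA1. CYP51A1 and HMGCS1 overlapped too, as did INSIG1 and FADS2 against all 17 sterol enzymes.

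Promoter sequence is shown for 3 members: MSMO1, which fell most, INSIG1, which varied most between libraries, and SCD, the most abundant. Each is the stretch before the RefSeq start (GRCh38.p14, plus strand) that lies outside GENCODE 29 exons, at chr4:165327419-165327622, chr7:155297628-155297775 and chr10:100346983-100347123. Capitals mark CCAAT or its reverse complement ATTGG, the box bound by NF-Y, and CACNCCAC or its reverse complement, a core of the sterol regulatory element bound by SREBF factors.
MSMO1: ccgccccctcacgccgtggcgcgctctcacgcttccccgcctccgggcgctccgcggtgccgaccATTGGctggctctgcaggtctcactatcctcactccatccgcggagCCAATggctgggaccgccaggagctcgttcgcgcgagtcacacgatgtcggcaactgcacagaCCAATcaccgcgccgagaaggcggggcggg
INSIG1: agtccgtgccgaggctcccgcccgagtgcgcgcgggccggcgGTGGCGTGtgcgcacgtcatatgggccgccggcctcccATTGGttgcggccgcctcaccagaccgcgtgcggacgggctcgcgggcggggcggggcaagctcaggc
SCD: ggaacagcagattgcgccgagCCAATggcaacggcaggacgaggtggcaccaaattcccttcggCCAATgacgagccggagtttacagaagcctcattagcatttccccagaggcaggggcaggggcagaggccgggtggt
The MSMO1 stretch holds 3 CCAAT boxes and 0 of the sterol core, the INSIG1 stretch 1 of each, and the SCD stretch 2 CCAAT boxes and 0 of the sterol core, although 1 sterol core runs across the end of the SCD stretch into the annotated exon.

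Promoter windows of 300 bases around RefSeq starts were at hand for 28 of the 31 members, some with several starts. CCAAT on either strand was present in at least 1 window of 22 of the 28, against 39.7% of 27305 genes. The GC box GGGCGG, also on either strand, was present for 26 of the 28, against 48.3% of genes. CACNCCAC, on either strand, was present for 6 of the 28, IDI1, SC5D, INSIG1, SREBF2, ACACA and SCD, against 7.05% of genes. The longer form TCACNCCAC, which contains it, was present for SREBF2 alone of the 28, against 1.39% of genes. The E-box CACGTG, which SREBF factors can also bind, was present for 5, LSS, SC5D, INSIG1, SCAP and ELOVL5, against 8.77% of genes. The 27305 genes include many that were not tested here, so their shares are not a matched background for the members. Whether any of these motifs marks the pathway was not tested. These matches describe the letters in the windows and are not measured binding sites.

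Among the other 7 enzymes between lanosterol and cholesterol, 0 were called, and 2 had all siMTA1 values below all control values, as did 25.9% of all tested genes. SC5D, which adds a double bond to the sterol ring, was at 14.82, 12.43 and 11.48 FPKM in control and 10.73, 9.43 and 11.29 FPKM with siMTA1. It missed the threshold (log2 difference −0.27, SE 0.09, adjusted p = 0.0712). SC5D was called without control library 3 (adjusted p = 0.0414) and in 2 of 13 other settings. NSDHL, which removes the carbon that MSMO1 has oxidised, was at 10.25, 9.26 and 9.88 FPKM in control and 8.81, 8.81 and 9.09 FPKM with siMTA1 (log2 difference −0.12, 95% interval −0.25 to 0.01, adjusted p = 0.162). The groups of NSDHL were separate but close, their means 9.12% apart.

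CYP51A1, which demethylates lanosterol, was at 55.06, 48.66 and 42.29 FPKM in controls 1, 2 and 3, against 38.19, 31.91 and 48.36 FPKM in siMTA1 libraries 1, 2 and 3. With siMTA1 library 3 among the controls, the groups overlapped, and the difference of −0.31 (SE 0.14) did not pass (adjusted p = 0.143). TM7SF2, a sterol reductase, was at 11.10, 10.65 and 12.82 FPKM in control and 9.18, 10.82 and 9.82 FPKM with siMTA1 (log2 difference −0.19, 95% interval −0.37 to −0.01, adjusted p = 0.121). The median over the 8 enzymes of this branch was −0.16. The remaining enzymes, HSD17B7, a sterol ketone reductase, EBP, an isomerase of the sterol double bond, and DHCR7, which makes the last reduction, had log2 differences of 0.05, 0.13 and 0.04. EBP, for example, was at 27.90, 32.35 and 26.97 FPKM in control and 28.15, 31.34 and 36.58 FPKM with siMTA1. The highest value of each of these 3 genes was in siMTA1 library 3. HSD17B7 had control and siMTA1 means of 8.49 ± 0.548 and 8.89 ± 1.89 FPKM (SD, n = 3 per group), and its pseudogene HSD17B7P2 reached 3.43 FPKM, so reads could have been split between them.

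The mevalonate arm showed no call among its 6 enzymes by limma, and 0 at an unadjusted p under 0.05. HMGCS1, which joins acetyl-CoA to acetoacetyl-CoA at the entry of the pathway, was at 50.40, 41.59 and 31.27 FPKM in control and 34.32, 31.30 and 47.00 FPKM with siMTA1. Its range within each group was wider than the gap between the means, 41.1 ± 9.57 and 37.5 ± 8.33 FPKM (SD, n = 3 each, log2 difference −0.12, 95% interval −0.51 to 0.27, adjusted p = 0.647). IDI1, the isomerase of isopentenyl diphosphate, was at 45.75, 39.56 and 31.06 FPKM in control and 34.70, 27.18 and 37.49 FPKM with siMTA1 (log2 difference −0.22, 95% interval −0.53 to 0.10). The kinase genes MVK and PMVK, the decarboxylase gene MVD and FDPS, which makes farnesyl diphosphate, had log2 differences of −0.08, −0.03, −0.08 and −0.09, and the median over the arm was −0.09. FDPS was at 66.95, 70.69 and 65.31 FPKM in control and 60.66, 62.03 and 68.27 FPKM with siMTA1, and MVD at 29.44, 27.16 and 27.08 FPKM and 23.82, 23.72 and 32.04 FPKM. In both, siMTA1 libraries 1 and 2 lay below all controls. Library 3 of siMTA1 lay within the control range for FDPS and above it for MVD. The 95% intervals of MVK, PMVK, MVD and FDPS lay between −0.32 and 0.16. The sign for PMVK turned under upper-quartile scaling, quantile normalization and median centring.

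From farnesyl diphosphate to lanosterol, 0 of 3 enzymes were called, and 1 was lower at an unadjusted p under 0.05. That one was FDFT1, squalene synthase, at 59.61, 56.18 and 53.79 FPKM in control and 45.34, 43.81 and 55.25 FPKM with siMTA1. Unlike the other siMTA1 libraries, library 3 lay within the control range, and the log2 difference was −0.23 (SE 0.09, adjusted p = 0.0857). SQLE, the epoxidase of squalene, was at 51.24, 45.35 and 36.13 FPKM in control and 42.38, 34.04 and 47.27 FPKM with siMTA1 (log2 difference −0.10, 95% interval −0.40 to 0.21). LSS, the cyclase that makes lanosterol, was at 6.63, 6.67 and 6.49 FPKM in control and 6.05, 5.84 and 7.13 FPKM with siMTA1 (log2 difference −0.05). The SQLE values of the groups were interleaved, while for LSS siMTA1 library 3 lay above the controls and the other siMTA1 libraries below them.

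**Figure D2:**
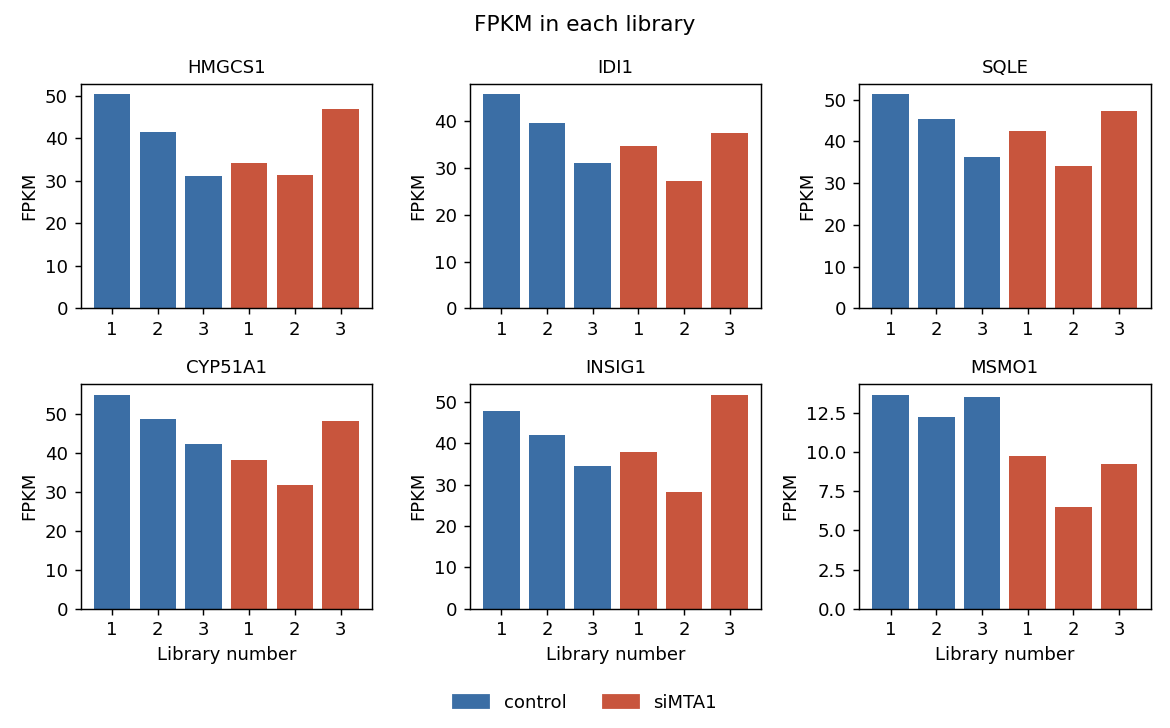
Bars are FPKM (y axis, from 0) of 6 genes in each control and siMTA1 library (x axis, library number). HMGCS1, IDI1, SQLE, CYP51A1 and INSIG1 range widely within each group, with siMTA1 library 3 the highest of its group, while every siMTA1 library of MSMO1 is below the lowest control at 12.27 FPKM.

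The regulators were called in 0 of 5 cases, with 1 lower at an unadjusted p under 0.05. INSIG1, the anchor of SCAP and itself a known target of SREBF factors, with a sterol core and a CCAAT box in its promoter stretch, was at 47.89, 42.01 and 34.60 FPKM in controls 1, 2 and 3, against 37.80, 28.14 and 51.83 FPKM in siMTA1 libraries 1, 2 and 3. Both the lowest and the highest of these 6 values were siMTA1 libraries, 1.84-fold apart, and the log2 difference was −0.11 (SE 0.19, 95% interval −0.53 to 0.31, adjusted p = 0.710). SCAP, the escort itself, had separate groups, with 6.34, 6.84 and 7.19 FPKM in control and 5.92, 6.05 and 5.96 FPKM with siMTA1 (log2 difference −0.16, SE 0.06, adjusted p = 0.0995). SREBF1 was at 27.31, 27.38 and 30.71 FPKM in control and 26.01, 23.93 and 26.88 FPKM with siMTA1. Those SREBF1 groups were separate too, and the difference did not pass (log2 difference −0.15, SE 0.07, adjusted p = 0.155). Separate groups with siMTA1 lower were found in 25.9% of all tested genes. SREBF2 was at 18.70, 20.27 and 21.77 FPKM in control and 18.28, 17.28 and 21.16 FPKM with siMTA1. SREBF2 (log2 difference −0.10, 95% interval −0.28 to 0.09) and the sterol carrier gene STARD4 (0.01, 95% interval −0.22 to 0.25) overlapped between groups. Levels of the mRNA do not show how much of either SREBF protein was cleaved.

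Genes that supply and build the fatty acid chain were called in 0 of 4 cases, and 0 at an unadjusted p under 0.05. FASN, the fatty acid synthase itself, was at 53.07, 54.27 and 57.21 FPKM in control and 50.76, 51.27 and 62.02 FPKM with siMTA1, with both the lowest and the highest library labelled siMTA1 (log2 difference −0.01, 95% interval −0.19 to 0.17, above 0 under TPM and each other scaling). ACLY, which makes cytosolic acetyl-CoA from citrate, was at 59.01, 63.63 and 64.03 FPKM in control and 53.47, 52.07 and 63.61 FPKM with siMTA1 (log2 difference −0.14, adjusted p = 0.221). ACACA, which makes malonyl-CoA, was at 9.34, 9.79 and 10.23 FPKM in control and 10.42, 10.66 and 11.01 FPKM with siMTA1. Here every siMTA1 library was above every control library, which held for 13.2% of all tested genes, but the difference did not pass (log2 difference 0.12, SE 0.06, adjusted p = 0.179). ACSS2, which makes acetyl-CoA from acetate, was at 20.08, 19.07 and 19.77 FPKM in control and 19.29, 20.61 and 21.88 FPKM with siMTA1 (log2 difference 0.06, 95% interval −0.07 to 0.20). The median over these 4 genes was 0.03, with the groups overlapping in all but ACACA.

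Desaturation held the other call. FADS2, which desaturates polyunsaturated chains, is annotated on the plus strand of chromosome 11, between 61792980 and 61867354, where it shares exon sequence with FADS1 on the other strand and FEN1 on the same one. It was the least expressed of the 31 genes, at 2.12, 2.41 and 2.36 FPKM in control and 1.60, 1.77 and 1.67 FPKM with siMTA1. All siMTA1 values were below all control values, as in 25.9% of all tested genes. The control and siMTA1 means were 2.30 ± 0.155 and 1.68 ± 0.0854 FPKM (SD, n = 3 each), or 73.1% of control. FADS2 fell by 0.30 on the log2 scale (SE 0.07, adjusted p = 0.0168). The call ended without control library 2 (adjusted p = 0.0702), without siMTA1 library 1 (0.0536) and when genes of any level were tested (0.0831). Its neighbour FADS1, which acts later on the same fatty acids, was at 12.14, 12.85 and 12.09 FPKM in control and 11.92, 12.16 and 12.73 FPKM with siMTA1 (log2 difference −0.01, 95% interval −0.14 to 0.12, above 0 under TPM and each other scaling). Reads shared between the overlapping genes could have moved either level, and their part was not tested.

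SCD, which puts the first double bond into saturated chains, was the most abundant of the 31 transcripts, at 203.52, 195.07 and 184.56 FPKM in control and 167.77, 143.65 and 190.10 FPKM with siMTA1. Library 3 of siMTA1 again lay within the control range, and SCD did not pass (log2 difference −0.22, SE 0.09, adjusted p = 0.117). ELOVL5, an elongase of polyunsaturated chains, was at 42.23, 42.34 and 39.48 FPKM in control and 44.79, 42.54 and 47.11 FPKM with siMTA1. These ELOVL5 groups were separate with siMTA1 higher, as in 13.2% of all tested genes, but only by 42.54 against 42.34 FPKM. The difference was small (log2 difference 0.11, SE 0.06, adjusted p = 0.207). ELOVL6, the elongase of palmitate, was at 19.92, 19.45 and 18.54 FPKM in control and 20.16, 19.41 and 18.83 FPKM with siMTA1, a log2 difference of 0.01 (95% interval −0.11 to 0.14).

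**Figure D3:**
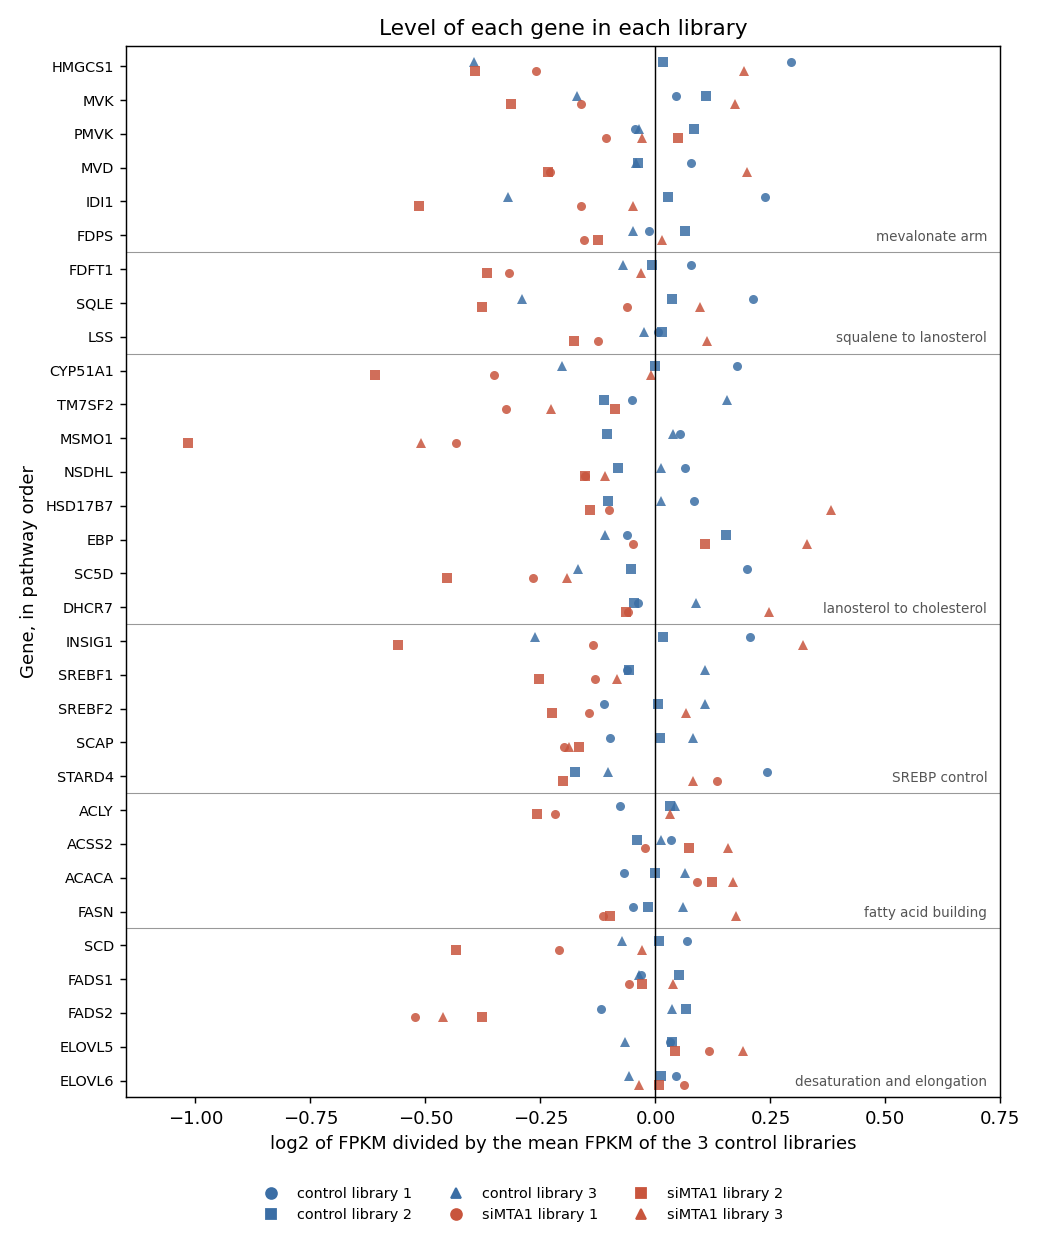
Each point is 1 library: log2 of FPKM over the control mean (x axis) for the 31 genes in pathway order (y axis), with colour for the group and shape for the library number. Points spread widely for many sterol genes, and siMTA1 library 3 (red triangles) is the highest siMTA1 point in 24 genes. The groups are apart with siMTA1 lower in 6 genes, MSMO1 and FADS2 among them, and with siMTA1 higher in 2. Over all tested genes these shares are 25.9% and 13.2%.

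Libraries of the same group often differed widely in the sterol genes, given here as a description with no test. The median within-group SD on the log2 scale was 0.162 for the 17 sterol enzymes, 0.064 for the 9 fatty acid genes and 0.083 for all tested genes. INSIG1 (0.344) and HMGCS1 (0.319) were at the percentiles 99.1 and 98.9 of all tested genes, followed by IDI1, CYP51A1 and SQLE above percentile 97. In all, 21 of the 31 genes were above the median of the table and 11 above percentile 90. ELOVL6 and ACACA were at the other end, at percentiles 13.8 and 14.5, and FADS1 lower still. HMGCS1 ranged 1.61-fold between control libraries. Counting error at the implied depth was at most 3.38% for any member, at 878 fragments of NSDHL.

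**Figure D4:**
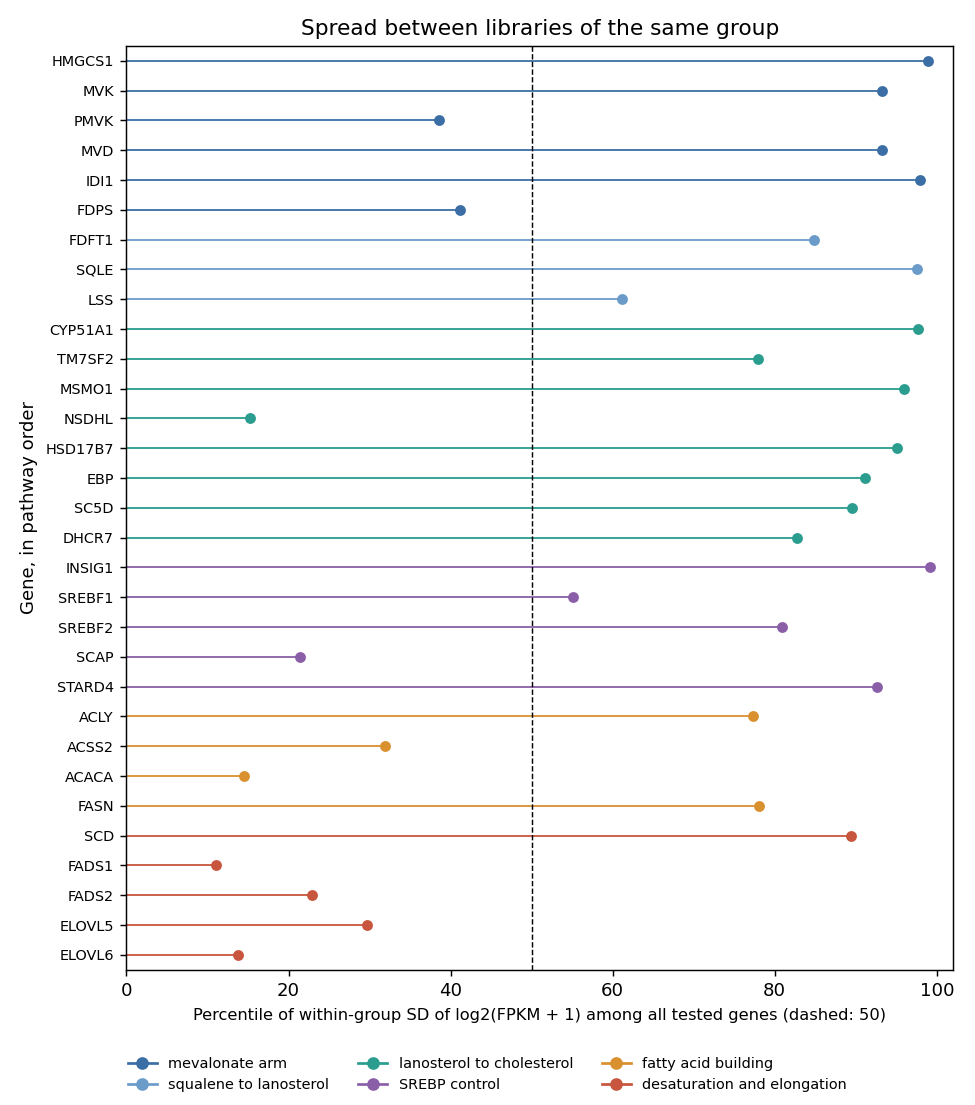
Each point is the percentile (x axis) of a gene's within-group SD of log2(FPKM + 1) among the 12141 tested genes, for the 31 genes in pathway order (y axis), coloured by role. INSIG1 and HMGCS1 stand at 99.1 and 98.9, and ELOVL6, ACACA and FADS1 below 15.

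This spread followed the libraries. SiMTA1 library 3 was the highest of its group in 14 of the 17 sterol enzymes and in 24 of all 31 genes, against 39.9% of all tested genes. SiMTA1 library 2 was the lowest of its group in 12 of the 17 enzymes, against 37.8% of all tested genes. The mean of the 17 enzymes on the log2(FPKM + 1) scale was 4.56, 4.48 and 4.39 in control libraries 1, 2 and 3 and 4.30, 4.21 and 4.51 in siMTA1 libraries 1, 2 and 3, so siMTA1 library 3 lay within the control range. Over all tested genes the same mean was 3.25, 3.24 and 3.26 in control and 3.21, 3.20 and 3.21 with siMTA1. Implied depth was 42900000, 56700000 and 65400000 fragments in control libraries 1, 2 and 3 and 57200000, 66700000 and 61100000 fragments in siMTA1 libraries 1, 2 and 3. The shallowest library had the highest sterol mean and the deepest the lowest, and the part of depth was not tested.

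Of the fits that leave out 1 library, the one without siMTA1 library 3 changed the count most. Without it, 6 of the 31 genes were lower and 0 higher, beside 8.34% of all tested genes lower and 4.54% higher in the same fit. Besides MSMO1 and FADS2 these were FDFT1 (log2 difference −0.33, adjusted p = 0.0160), CYP51A1 (−0.46, adjusted p = 0.0312), SCD (−0.32, adjusted p = 0.0338) and ACLY (−0.23, adjusted p = 0.0466). The remaining pair of siMTA1 libraries was set against 3 controls there. In that fit 16 of the 17 sterol enzymes had a log2 difference below 0, beside 61.9% of all tested genes. Library 3 was the highest siMTA1 library in 14 of these 17, against 39.9% of all tested genes. Leaving it out lowers the differences of such genes by construction, so this count adds no separate support for a fall. With all 6 libraries it was 14 of the 17, beside 61.7% of all tested genes. INSIG1 and HMGCS1 remained uncalled at −0.33 and −0.29 (adjusted p = 0.162 and 0.243). The median over the 31 genes was −0.18 without siMTA1 library 3 and −0.01 without siMTA1 library 2.

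With any other library left out, 1 to 3 of the 31 genes were lower and 0 higher. Without control library 1 these were MSMO1 and FADS2, while 9.88% of all tested genes were lower and 4.79% higher. MSMO1 alone was called without control library 2, where 5.42% of all tested genes were lower and 3.2% higher. MSMO1, FADS2 and SC5D were called without control library 3, with 8.51% of all tested genes lower and 5.2% higher. Without siMTA1 library 1 the call was MSMO1 alone, beside 8.2% lower and 4.13% higher in the table. Without siMTA1 library 2 the calls were MSMO1 and FADS2, beside 5.27% lower and 3.53% higher. MSMO1 was thus called in each of the 6 fits that leave out 1 library, and FADS2 in 4.

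**Figure D5:**
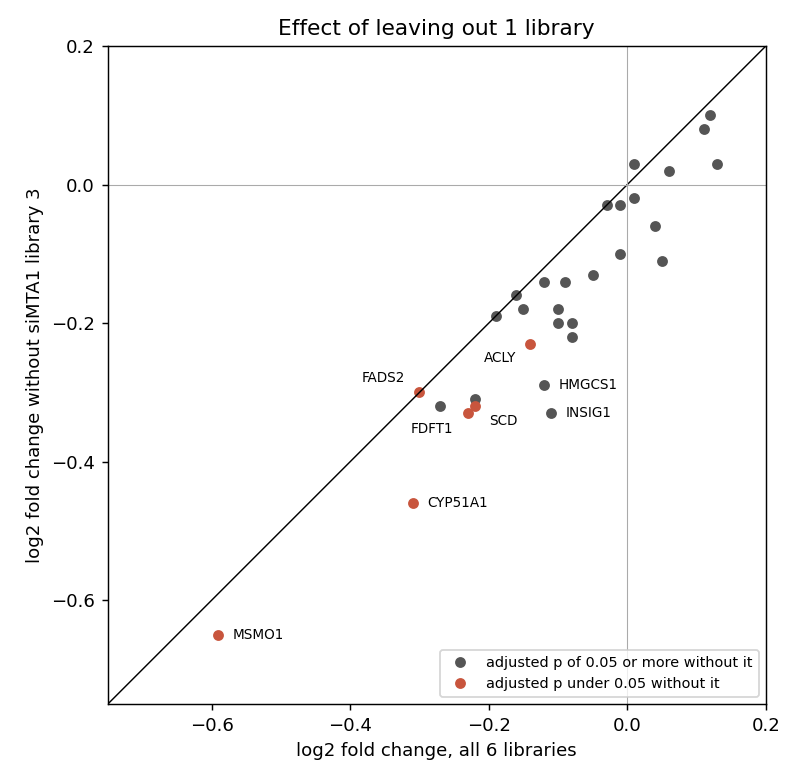
Each point is 1 of the 31 genes: the log2 fold change with all 6 libraries (x axis) against that without siMTA1 library 3 (y axis), on a diagonal of equal values, red where the adjusted p was under 0.05 without the library. Most points lie below the diagonal, INSIG1 moving from −0.11 to −0.33 and MSMO1 from −0.59 to −0.65. Leaving the library out necessarily lowers the value of the 24 genes in which it was the highest siMTA1 library.

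Around the pathway, 70 further genes were tested in 5 lists, and 9 were lower and 3 higher, near the background of 12.1% lower and 6.13% higher over all tested genes. After quantile normalization these counts were 4 and 5, and with median centring 4 and 5 as well. The list of SREBP processing and sterol sensing had 3 of 10 lower and 1 higher, with a median log2 difference of −0.14 beside −0.05 over all tested genes. INSIG2, the paralog of INSIG1, was at 12.77, 11.50 and 10.76 FPKM in control and 17.30, 13.55 and 15.40 FPKM with siMTA1, with every siMTA1 library above every control (log2 difference 0.37, SE 0.09, adjusted p = 0.0221). TMEM97, a sterol-responsive membrane protein gene, was at 6.53, 6.16 and 7.16 FPKM in control and 5.24, 4.56 and 5.68 FPKM with siMTA1 (log2 difference −0.31, adjusted p = 0.0287, but 0.0514 after quantile normalization and 0.0510 with median centring). The groups of TMEM97 did not overlap either. Such separation was found in 25.9% of all tested genes with siMTA1 lower and 13.2% with siMTA1 higher. TMEM97 and INSIG2 were each called in 2 of the 6 fits that leave out 1 library.

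Sterol transport and LXR genes had 1 of 10 lower and 1 higher, with a median of −0.06. NR1H2, the sterol-sensing nuclear receptor LXR-beta, was at 21.42, 22.69 and 22.41 FPKM in control and 16.55, 18.24 and 18.90 FPKM with siMTA1, with separate groups (log2 difference −0.30, SE 0.06, adjusted p = 0.0131). NPC1, which exports cholesterol from lysosomes, was at 10.86, 10.18 and 10.24 FPKM in control and 12.34, 11.56 and 13.39 FPKM with siMTA1 (log2 difference 0.23, adjusted p = 0.0373). Separate groups with siMTA1 lower, as for NR1H2, were found in 25.9% of all tested genes. Leaving out 1 library kept the NR1H2 call in 5 of 6 fits and that of NPC1 in 2 of 6. Other sterol and isoprenoid enzymes were called in 0 of 8 cases, with a median of −0.12. An unadjusted limma p under 0.05 was reached by 3 lower and 0 higher ones, beside 2853 lower and 1402 higher of the 12141 tested genes.

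Other genes of fatty acid synthesis, elongation and activation had 5 of 22 lower and 1 higher, beside 12.1% and 6.13% of all tested genes, with a median of −0.13. ACSL5, which activates long-chain fatty acids, was at 40.37, 43.64 and 43.76 FPKM in control and 53.44, 50.78 and 55.26 FPKM with siMTA1 (log2 difference 0.31, SE 0.06, adjusted p = 0.00794). Its relative ACSL4, which prefers polyunsaturated chains, went the other way, at 15.55, 14.96 and 13.30 FPKM in control and 12.22, 11.10 and 12.17 FPKM with siMTA1 (log2 difference −0.28, adjusted p = 0.0248, but 0.0576 after quantile normalization and 0.0570 with median centring). SCD5, a paralog of SCD, was at 8.99, 9.23 and 8.04 FPKM in control and 6.78, 6.27 and 6.84 FPKM with siMTA1 (log2 difference −0.35, SE 0.07, adjusted p = 0.00815). In each of these 3 genes the groups did not overlap, as in 25.9% of all tested genes with siMTA1 lower and 13.2% with siMTA1 higher. When genes of any level were tested, ACSL5 was called (limma adjusted p = 0.0417), but SCD5 and ACSL4 were not (0.0516 and 0.106). The calls of ACSL5 and SCD5 held in all 6 fits that leave out 1 library, that of ACSL4 in 3. MCAT, of mitochondrial fatty acid synthesis, had a log2 difference of −0.34 (adjusted p = 0.0132), and its call held in 4 of those 6 fits. The elongation cycle genes HACD3, a dehydratase, and TECR, a reductase, were at −0.25 and −0.24 (adjusted p = 0.0156 and 0.0430). HACD3 was called in 4 and TECR in 2 of those 6 fits, and TECR in 7 of 13 other settings. Of 20 fatty acid oxidation genes 0 were called. Among them 2 lower and 2 higher ones reached an unadjusted limma p under 0.05, beside 2853 lower and 1402 higher of the 12141 tested genes.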

How the data were processed

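The authors deposited 1 table of FPKM values for 36651 genes in 6 libraries, to 2 decimals. The submitters' processing notes name cutadapt, TopHat2, edgeR and GRCh38, without roles; the counting method, strand setting and gene lengths used are not given in these sources. Columns were assigned to samples by name. In GENCODE 29, 35749 gene identifiers were found. Of the 31 members, 13 share exon sequence with a gene on the other strand, 4 with one on the same strand, and 4 have a pseudogene in the table; their levels are uncertain to that extent.

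The 12141 genes averaging 1 FPKM or more were tested with limma 3.58.1 in R 4.3.3 on log2(FPKM + 1), two-sided, with an intensity trend and Benjamini-Hochberg adjustment over all tested genes, so fold changes of low genes are understated. The method was tested on simulated data with noise drawn separately for each gene. That test does not cover shifts shared by many genes of a library, and its recovery of small differences is not given here. The members and lists were chosen with earlier results of these data known. All 31 members are named, with MTA1 and each list gene past the threshold, except for results that are not reported here. Depth was taken from genes under 150 bases, where 94.9% to 97.2% of low values were whole fragments within 0.05 beyond rounding; the fragments per member assume GENCODE 29 exon lengths and cover counting error only. Alternatives were other pseudocounts, filters, scalings and limma settings, a replicate block, and leaving out each library. The test planned for counts was not needed.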

Additional observations from a re-analysis of the deposited data

How the results depend on the processing

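The count of called members was 0 with no filter on low values, 9 with array weights, 1 to 6 when 1 library was left out, and 2 in the other 11 settings. The cause was not tested. With no filter, 6 members were lower and 1 higher by unadjusted limma p under 0.05. The share of all genes at that threshold was not counted for this fit. In the 11 settings the 2 were MSMO1 and FADS2, except with a minimum mean of 5 FPKM. There FADS2 was not tested, and MSMO1 and SC5D were called. All tested genes gave 2207 calls, 676 of 33126 with no filter, 4049 with array weights and 1046 (without control library 2) to 1780 with 1 library left out. The 70 genes around the pathway gave 12 calls, 2 of 76 with no filter, 24 with array weights and 3 to 11 with 1 library left out. MTA1 kept its direction and call in every setting (−0.58 to −0.49). With the replicate number as a block, 2 members, 19 genes around the pathway and 3031 of all genes were called. Deviations of same-numbered libraries correlated at 0.331, 0.022 and 0.219, and those of differently numbered ones at −0.277 to 0.071. The labels name no source shared by a number, so the main fit did not pair the libraries. Whether they are pairs was not tested.

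Log2 differences near 0 turned sign in members that were not called. FADS1 was at 0.01 with TPM, 0.03 with upper-quartile scaling, 0.04 with quantile normalization and 0.04 with median centring, and FASN at 0.01, 0.03, 0.03 and 0.04 in that order. PMVK was at 0.01, 0.01 and 0.03 under upper-quartile scaling, quantile normalization and median centring, LSS at 0.00 under quantile normalization and 0.00 under median centring, and EBP at −0.01 with array weights. With 1 library left out, values ranged from −0.30 to 0.03 for HMGCS1, −0.20 to 0.01 for MVK, −0.07 to 0.01 for PMVK, −0.23 to 0.03 for SQLE, −0.11 to 0.13 for HSD17B7, −0.06 to 0.09 for DHCR7, −0.33 to 0.10 for INSIG1, −0.05 to 0.12 for STARD4, −0.10 to 0.04 for FASN, −0.03 to 0.02 for FADS1 and −0.02 to 0.03 for ELOVL6.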
